A study of Homo sapiens with 30 samples.

Results

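The effect of wild type p53 on each gene of H1299 cells was measured at 2 times after transfection, and the change of that effect between 6 h and 24 h is described here. The comparison was the p53 effect at 24 h (wild type p53 against a control vector without p53) minus the same effect at 6 h. It used 12 of the 30 RNA-seq libraries of the series, in 4 groups of 3 biological replicates. H1299 is a human lung carcinoma line that makes no p53 protein of its own. The control group (pGFP) received a vector with the gene of green fluorescent protein under a tetracycline-responsive promoter, and the wild type group (WT p53) a vector that also carried the wild type p53 coding sequence under a promoter of the same kind. All 4 groups were transiently transfected and sorted for green fluorescence at 6 h or at 24 h and every value refers to the sorted cells. In such bulk libraries, fewer cells that make a transcript and less of it per cell cannot be told apart. None of the 4 groups received O6-benzylguanine, an inhibitor of the repair protein AGT. Later passages also use RW libraries, whose vector carries R248W mutant p53, and O6-meG libraries. The O6-meG vector carries the wild type sequence with a methylated guanine, and neither group received the inhibitor. TM libraries, O6-meG with the inhibitor, enter only the fits of 28 and 30 libraries.

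p53 is a transcription factor that binds a response element made of a pair of short sites and raises transcription of nearby genes. Its targets restrain the cell cycle (CDKN1A, which inhibits cyclin-dependent kinases), drive apoptosis (BAX, PIDD1) and feed back on p53 itself (MDM2, which marks p53 for degradation). Genes that fall in cells with p53 are mostly genes of DNA replication and mitosis, and their repression is known to pass through CDKN1A, the retinoblastoma proteins and the DREAM complex, which sits on E2F elements and on CHR elements of their promoters.

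Total counts were 46752114 to 71950532 per library at 6 h and 32302699 to 45631412 at 24 h. The share of counts on mitochondrial genes was 0.171 to 0.428% at 6 h and 0.577 to 1.12% at 24 h, and its part in the results was not tested. Carcinoma markers were present in all 12 libraries, from 75.4 CPM (counts scaled to a common library total) for EGFR to 3380 CPM for VIM. All other levels given are CPM after TMM scaling of the totals. The lung epithelial markers SFTPB, SFTPC, SCGB1A1 and CDH1 were at 0 to 7 counts, the leukocyte marker PTPRC at 0 to 2, and NKX2-1 and FOXJ1 stayed under 1 CPM. CD68 was at 1 to 12 counts, the endothelial markers PECAM1 and VWF at 1 to 40 and 2 to 46, and the fibroblast markers DCN and COL1A1 at 9 to 23 and 12 to 75. Libraries of one group differed by more than sampling noise in every pair.

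Of 20027 genes tested, 1585 (7.91%) had a p53 effect that differed between the times at an adjusted p under 0.05 (edgeR, Benjamini-Hochberg over all genes tested, in a fit with no term for the replicate number). The effect was higher at 24 h for 933 genes (4.66%) and lower for 652 (3.26%). It differed by at least 2-fold for 225 and 83 of them. With the replicate number as a block within each time, 2177 were higher and 1776 lower, so that many genes not called here passed there. Leaving out 1 library gave 533 to 1342 genes higher and 301 to 858 lower. Without replicate 1, 2 or 3 of pGFP at 6 h the counts were 582, 571 and 611 higher and 339, 301 and 411 lower. Without replicate 1 or 2 of WT p53 at 6 h they were 544 and 533 higher and 303 and 356 lower, and without replicate 2 of pGFP at 24 h, 419 were lower. The number differing by at least 2-fold fell from 308 to 186 without replicate 1 of WT p53 at 6 h. In all 12 such fits, 453 of the 933 and 249 of the 652 remained called in the same direction. A fit of every gene with at least 1 count turned the balance, with 46.4% of the calls higher in place of 58.9%. The median change over all genes tested was 0.002 on the log2 scale.

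At a single time, genes were counted as raised or lowered when they differed by 2-fold or more and the adjusted p was below 0.05. WT p53 raised 922 genes at 6 h (4.6%) and 1863 at 24 h (9.3%). It lowered 17 genes at 6 h (0.0849%) and 391 at 24 h (1.95%). The 17 became 5, 9 or 9 without replicate 1 of WT p53 at 6 h or replicates 2 or 3 of pGFP at 6 h, and 26 without replicate 1 of WT p53 at 24 h. Of the 922 genes raised at 6 h, 853 were also raised at 24 h, and the change of the effect was not called for 776. Of the 1863 genes raised at 24 h, 659 had not passed the test at 6 h. For 492 of those 659 the change of the effect itself did not pass its own test.

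The 1585 genes were sorted by their effects at each time, with no further test. A late rise was an effect of at least 2-fold at 24 h that was higher than at 6 h, where it did not pass the test, and 167 genes had one. In a growing rise, the effect was positive at 6 h with an adjusted p under 0.05, at any size, and higher and at least 2-fold at 24 h. This held for 347 genes, of which 126 had passed 2-fold at 6 h. A fading rise of at least 2-fold at 6 h that was lower at 24 h was seen for 19 genes. A late fall, of at least 2-fold at 24 h and with no call at 6 h, was seen for 91 genes, and a growing fall, which had also passed the test at 6 h, for 9. The count of growing falls was 2, 4 and 3 without replicates 1, 2 and 3 of pGFP at 6 h, 4, 3 and 3 without those of WT p53 at 6 h, and 18 and 17 without replicates 1 and 3 of WT p53 at 24 h. Reversal was seen for 1 gene and a fading fall for 0. The other 951 genes (419 higher, 532 lower) met none of these definitions.

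**Figure D1:**
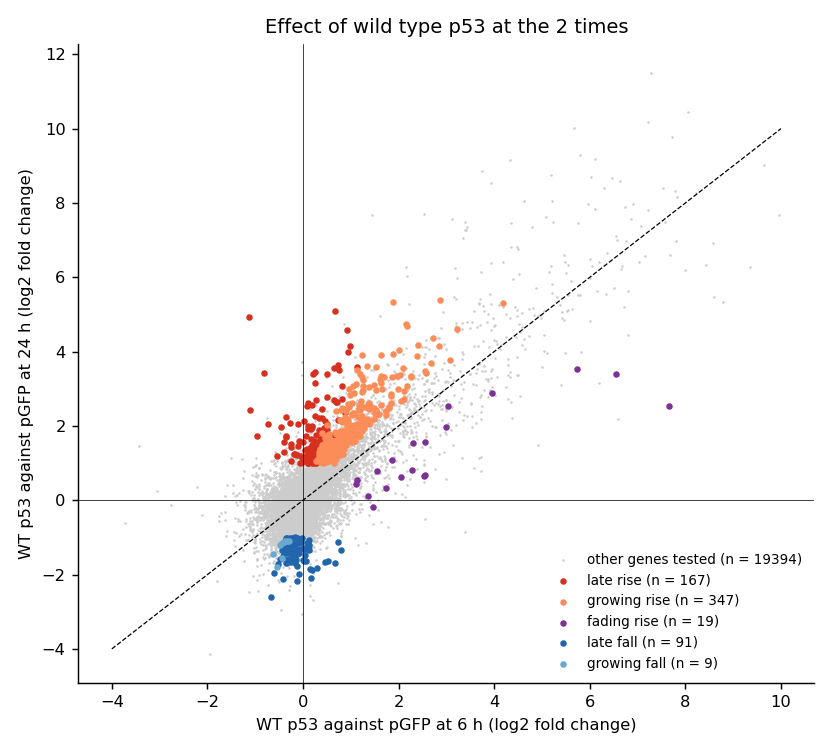
Each point is 1 gene, with the log2 fold change of WT p53 against pGFP at 6 h on the horizontal axis and at 24 h on the vertical axis (means of 3 libraries per group). The dashed line marks equal effects. The 167 late rises and 347 growing rises lie above it, and the 19 fading rises, 91 late falls and 9 growing falls below it.

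The late rises had a median effect of 0.26 at 6 h and 1.38 at 24 h (log2), against 0.02 and 0.01 over all genes tested. LINC00324, a long non-coding RNA, was at 1.26, 1.14 and 0.909 CPM in pGFP and 1.71, 1.87 and 1.60 CPM in WT p53 at 6 h. At 24 h it was at 1.75, 0.869 and 1.95 CPM in pGFP and at 20, 21.6 and 12.4 CPM in WT p53. All 3 WT p53 libraries at 24 h thus stood far above the other 9. Its effect went from 0.65 ± 0.28 to 3.57 ± 0.25 (log2 ± SE), a change of 2.93 ± 0.38 (edgeR, adjusted p = 0.00083).

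PTPRO, a receptor-type tyrosine phosphatase, was at 1.97, 1.73 and 2.08 CPM in pGFP and 2.71, 3.35 and 3.62 CPM in WT p53 at 6 h. At 24 h it was at 0.835, 1.30 and 1.23 CPM in pGFP and 15.7, 14.7 and 7.87 CPM in WT p53. The groups were apart at both times, and the pGFP level fell while the WT p53 level rose. The change of the effect was 2.74 ± 0.34 (edgeR, adjusted p = 0.00073). KIF26B, a member of the kinesin family, changed by 2.91 ± 0.43 (adjusted p = 0.0014), from 0.844 to 1.44 CPM in WT p53 at 6 h to 4.83 to 7.09 CPM at 24 h, with 0.323 to 1.03 CPM in pGFP.

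TOX, an HMG-box nuclear protein known from T cell development, was at 0.175 to 0.542 CPM in pGFP and WT p53 at 6 h, at 0.512, 0.686 and 0.556 CPM in pGFP at 24 h, and at 9.02, 5.8 and 3.78 CPM in WT p53 at 24 h. NECAB1, a neuronal calcium-binding protein, was at 0.110 to 0.385 CPM at 6 h and at 8.21, 5.12 and 2.92 CPM in WT p53 at 24 h, against 0.301 to 0.366 CPM in pGFP. In both genes the WT p53 libraries at 24 h were above all others but spread more than 2-fold among themselves. The effects changed by 3.18 ± 0.62 for TOX and 3.05 ± 0.67 for NECAB1 (edgeR, adjusted p = 0.0065 and 0.012). Without replicate 3 of pGFP at 6 h, neither passed (2.39, adjusted p = 0.056, and 2.63, adjusted p = 0.082). Exons of genes on the opposite strand cover 20.2% of the NECAB1 exon bases.

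SIRPB1, a membrane receptor of myeloid cells, was the 1 late rise with at most 3 counts in every pGFP library. It had 2, 2 and 2 counts in pGFP and 1, 3 and 6 in WT p53 at 6 h, then 0, 0 and 1 in pGFP and 13, 11 and 22 in WT p53 at 24 h. Only the WT p53 libraries at 24 h stood clear of the other groups, at a depth that gave no reliable fold. Its call (adjusted p = 0.039) was lost without any 1 of replicates 1 to 3 of pGFP at 6 h, 1 or 2 of pGFP at 24 h, or 1 or 2 of WT p53 at 6 h (adjusted p = 0.072 to 0.10). With RW mutant p53 as the control its fitted change went from 4.43 to 0.59 (adjusted p = 0.96). The count of late rises was 108 without replicate 1 of WT p53 at 24 h.

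By median, the late rises were longer genes. The median distance between the ends of the gene was 84.9 kb for the 146 protein-coding late rises (quartiles 33.8 and 297 kb), 34.7 kb for the 328 growing rises, 22.1 kb for the 18 fading rises and 33.9 kb for the 14133 protein-coding genes tested. It was 23.0 kb for the 682 protein-coding genes raised at 6 h. These medians are a description with no test, and the part of gene length in the results was not tested.

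The growing rises had a median effect of 0.81 at 6 h and 1.63 at 24 h. CDKN1A was at 42.3, 34.2 and 43.8 CPM in pGFP and 260, 243 and 263 CPM in WT p53 at 6 h. By 24 h it was at 45.2, 50.7 and 49.7 CPM in pGFP and 551, 798 and 518 CPM in WT p53. The pGFP level stayed within 34.2 to 50.7 CPM, and the WT p53 libraries at 24 h were all above those at 6 h. The effect was 2.67 ± 0.14 at 6 h and 3.68 ± 0.15 at 24 h, a change of 1.01 ± 0.19 (edgeR, adjusted p = 0.0069).

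VCAN, the matrix proteoglycan versican, had the largest change among the growing rises named by level and size. It was at 14.1, 16.3 and 15.7 CPM in pGFP and 61.0, 65.9 and 77.8 CPM in WT p53 at 6 h, and at 7.11, 8.37 and 7.76 CPM in pGFP and 270, 212 and 145 CPM in WT p53 at 24 h. The pGFP level fell and the WT p53 level rose, with no overlap between any of the 4 groups. The effect grew from 2.15 ± 0.18 to 4.75 ± 0.20, by 2.60 ± 0.26 (edgeR, adjusted p = 0.00073).

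NTN1, which encodes the guidance factor netrin-1, was at 1.99, 1.29 and 2.90 CPM in pGFP and 3.72, 3.85 and 6.04 CPM in WT p53 at 6 h, then 6.25, 7.62 and 7.55 CPM in pGFP and 90.5, 91.2 and 59.9 CPM in WT p53 at 24 h. It rose in both arms, and more in WT p53, with a change of the effect of 2.35 ± 0.37 (edgeR, adjusted p = 0.0031). MAST4, a serine/threonine kinase, went from 2.01 to 3.21 CPM at 6 h to 31.2, 17.6 and 14.5 CPM at 24 h in WT p53 while pGFP stayed at 0.329 to 0.539 CPM, a change of 2.52 ± 0.51 (adjusted p = 0.0083). DCLK1, a doublecortin-like kinase, changed by 2.29 ± 0.43 (adjusted p = 0.0051) and reached 24.2, 18.0 and 11.2 CPM. KCNF1, a potassium channel subunit, changed by 2.27 ± 0.46 (adjusted p = 0.0073) and reached 5.78, 4.21 and 3.11 CPM. In most of these genes replicate 3 of WT p53 at 24 h was the lowest of its group. Without it, 570 growing rises were counted in place of 347. The count was 225 and 210 without replicates 1 and 2 of pGFP at 6 h, and 225 and 218 without replicates 1 and 2 of WT p53 at 6 h.

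**Figure D2:**
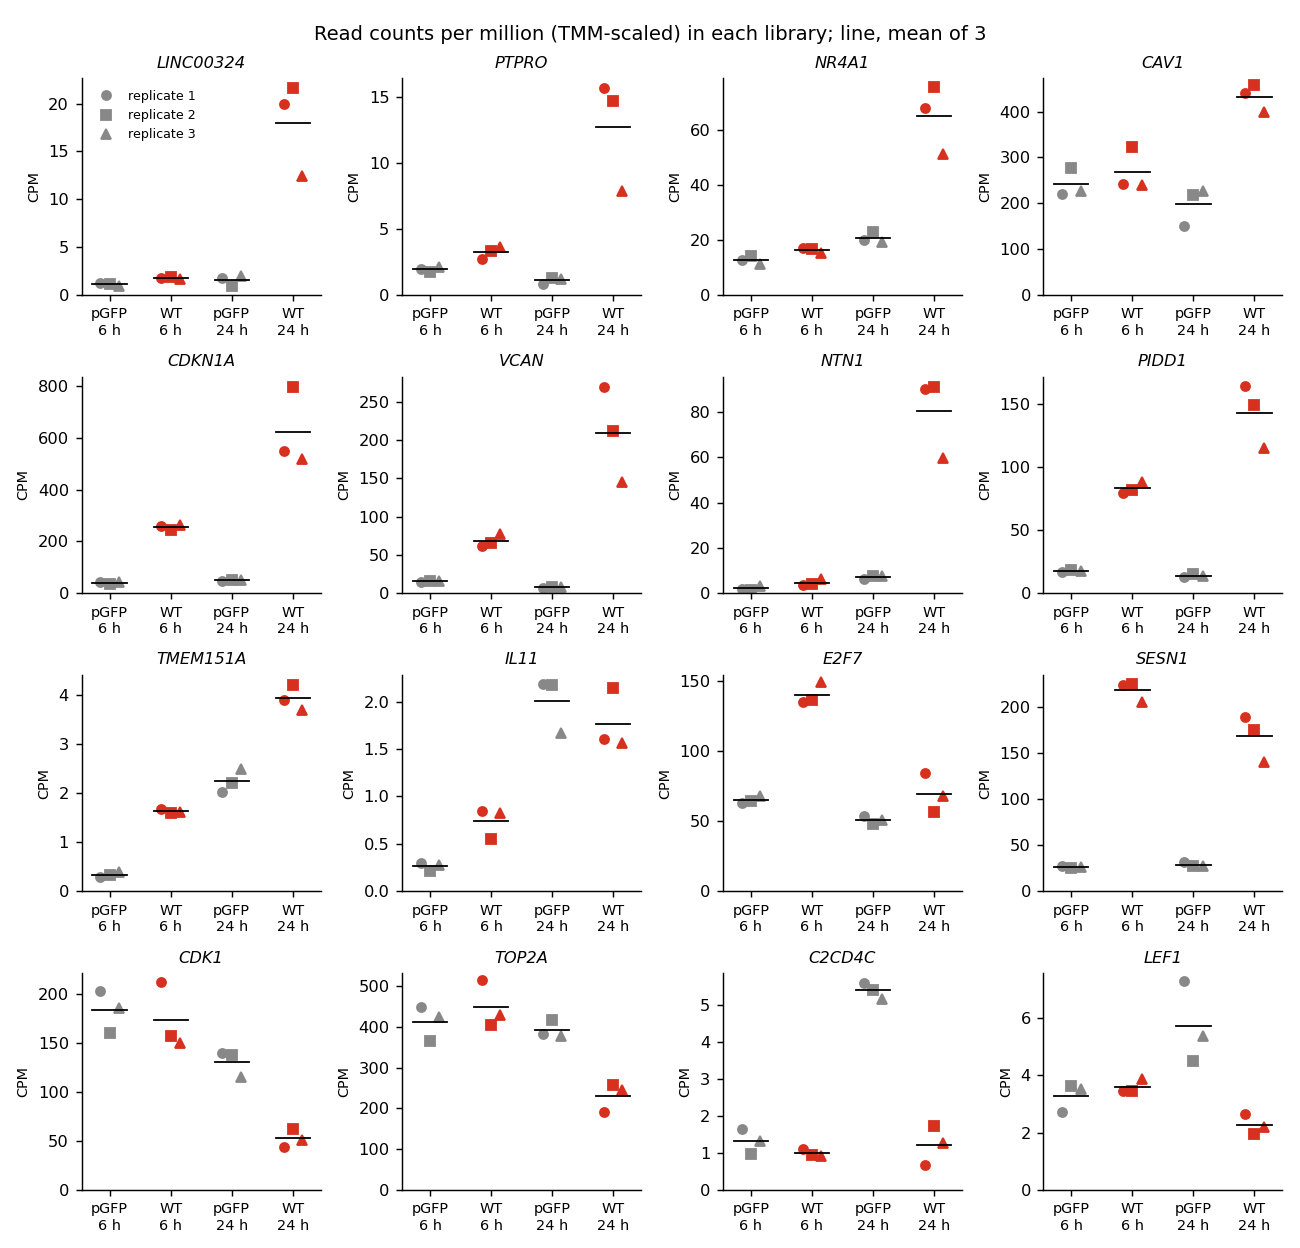
CPM (vertical axis, TMM-scaled, each starting at 0) of 16 genes in each of the 12 libraries, grouped by vector and time. Symbols mark the replicate number and lines the mean of 3. LINC00324 was at 12.4 to 21.6 CPM in WT p53 at 24 h, CDK1 was lowest there at 43.8 to 62.4 CPM, and IL11 overlapped between the vectors at 24 h.

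The fading rises had a median effect of 2.29 at 6 h and 0.81 at 24 h. TMEM151A, a transmembrane protein gene, was at 0.284, 0.329 and 0.385 CPM in pGFP and 1.68, 1.60 and 1.61 CPM in WT p53 at 6 h. At 24 h it was at 2.02, 2.2 and 2.5 CPM in pGFP and 3.90, 4.21 and 3.69 CPM in WT p53. The gene was higher with WT p53 at both times, and both arms rose, pGFP the more. Its effect went from 2.28 ± 0.19 to 0.81 ± 0.15, a change of -1.47 ± 0.24 (edgeR, adjusted p = 0.0025).

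IL11, a cytokine of the interleukin-6 family, was at 0.304, 0.219 and 0.280 CPM in pGFP and 0.842, 0.547 and 0.828 CPM in WT p53 at 6 h. At 24 h the groups overlapped, at 2.18, 2.17 and 1.67 CPM in pGFP and 1.60, 2.14 and 1.56 CPM in WT p53. The change was -1.64 ± 0.34 (edgeR, adjusted p = 0.0084). PDZD4 and ERFL also rose in both arms, with changes of the effect of -1.42 ± 0.31 and -1.39 ± 0.29 (adjusted p = 0.011 and 0.0081). PLIN4, a coat protein of lipid droplets, changed by -1.88 ± 0.46 (adjusted p = 0.020), with a call that was lost without replicate 1 or 3 of pGFP at 6 h (-1.90, adjusted p = 0.055, and -1.63, adjusted p = 0.069).

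TP53INP1, an autophagy and stress protein of the p53 feedback list, was a fading rise with higher counts. It was at 11.6, 11.1 and 13.6 CPM in pGFP and 97.2, 91.6 and 101 CPM in WT p53 at 6 h, then at 42.1, 36.7 and 32.1 CPM in pGFP and 164, 151 and 119 CPM in WT p53 at 24 h. It rose in both arms, and the effect changed by -1.02 ± 0.17 (edgeR, adjusted p = 0.0023). E2F7, a repressor of the E2F family, differed from it in its course. Its level in WT p53 fell from 135, 136 and 149 CPM at 6 h to 84.1, 56.5 and 68.0 CPM at 24 h, and pGFP went from 63.1 to 67.6 CPM to 48.2 to 53.9 CPM. Its effect changed by -0.66 ± 0.15 (adjusted p = 0.015). RHEBL1, chosen after its values were seen, fell in WT p53 from 12.4, 14.7 and 14.9 CPM to 6.79, 5.51 and 5.55 CPM while pGFP stayed at 4.69 to 6.25 CPM, a change of -1.24 ± 0.19 (adjusted p = 0.0014).

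Of the 19 fading rises, 9 were still raised by at least 2-fold at 24 h, and 5 did not pass the test there. FOXF1, CBFA2T3 and HMCN2, also named after their values were seen, had 0, 0 to 1 and 0 to 2 counts in the pGFP libraries at 6 h, against 21 to 42, 30 to 63 and 56 to 112 in WT p53. With so few counts in that control the fitted folds are no bound. The calls of CBFA2T3 and HMCN2 were lost without any 1 library at 6 h, and without some single libraries at 24 h. In those fits the adjusted p was 0.056 to 0.14 for CBFA2T3 and 0.054 to 0.15 for HMCN2 (edgeR). FOXF1 rose further in WT p53, to 77 to 112 counts at 24 h, with 10 to 18 in pGFP, and its change had the opposite sign in independent libraries (2.15 ± 1.11, adjusted p = 0.35). The count of fading rises was 11, 11 and 12 without replicates 1, 2 and 3 of pGFP at 6 h, 12 and 11 without replicates 1 and 2 of WT p53 at 6 h, and 31 without replicate 1 of WT p53 at 24 h. CLPSL2, the 1 reversal, was at 0.0439 to 0.101 CPM in pGFP and 0.192 to 0.210 CPM in WT p53 at 6 h and at 0.371 to 0.458 and 0.152 to 0.218 CPM at 24 h, a range of few reads, and with RW mutant p53 as the control its change of -2.47 was -0.63 (adjusted p = 0.59).

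The late falls had a median effect of -0.18 at 6 h and -1.31 at 24 h. C2CD4C, a C2 domain protein gene, was at 1.64, 0.965 and 1.31 CPM in pGFP and 1.10, 0.935 and 0.917 CPM in WT p53 at 6 h. At 24 h it was at 5.6, 5.4 and 5.17 CPM in pGFP and 0.659, 1.72 and 1.27 CPM in WT p53. It rose in pGFP while the change with time did not pass in WT p53, and its effect changed by -1.71 ± 0.37 (edgeR, adjusted p = 0.010).

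COL11A1, a chain of collagen XI, had the same course, at 0.889 to 1.04 CPM in both arms at 6 h, 3.64, 2.56 and 2.5 CPM in pGFP at 24 h and 0.811, 1.09 and 0.885 CPM in WT p53, a change of -1.69 ± 0.28 (edgeR, adjusted p = 0.0026). TLX3, a homeobox factor, rose in both arms and less in WT p53, to 2.29 to 2.67 CPM in pGFP and 0.608 to 1.05 CPM in WT p53, a change of -1.45 ± 0.33 (adjusted p = 0.013). Exons of a gene on the opposite strand cover 15.9% of its exon bases. LEF1, a transcription factor of the Wnt pathway, was at 2.72 to 3.86 CPM in both arms at 6 h, at 7.30, 4.51 and 5.37 CPM in pGFP at 24 h and at 2.66, 1.96 and 2.18 CPM in WT p53. There the arms moved apart, and the effect changed by -1.47 ± 0.26 (adjusted p = 0.0033). TACR3, the neurokinin B receptor, changed by -1.66 ± 0.39 (adjusted p = 0.018), and the call was lost without replicate 1 of WT p53 at 6 h (-1.56, adjusted p = 0.053) or replicate 2 of pGFP at 6 h (-1.61, adjusted p = 0.050). The number of late falls was 57, 57 and 54 without replicate 1 of pGFP at 24 h, replicate 1 of WT p53 at 6 h and replicate 2 of pGFP at 6 h.

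The cell cycle lists lay on the lower side. Of 44 tested genes of G1/S and replication, 24 had a lower effect at 24 h and 0 a higher one (3.26 and 4.66% over all genes tested), with a median change of -0.42, and all 44 changes were below 0. At 6 h the effect of WT p53 on the 44 was negative with an adjusted p under 0.05, at any size, for 5, and at 24 h for 33. With the 2-fold limit, 0 of the 44 were lowered at 6 h and 1 at 24 h. Over all genes tested, 0.0849% and 1.95% were lowered by that limit. The share over all genes was not counted for negative effects of any size. Of 42 tested genes of G2/M, 26 had a lower effect at 24 h and 0 a higher one, with a median of -0.54 and 41 below 0. The effect passed as negative, at any size, for 1 of them at 6 h and for 36 at 24 h. With the 2-fold limit, 0 of the 42 were lowered at 6 h and 5 at 24 h. Without replicate 2 of WT p53 at 6 h, 15 G1/S genes were called. The G2/M count was 14 and 11 without replicates 1 and 2 of pGFP at 6 h, 10 without replicate 1 of WT p53 at 6 h, 13 and 17 without replicates 2 and 3 of pGFP at 24 h, 17 without replicate 2 of WT p53 at 24 h, and 15 with RW mutant p53 as the control. In all 12 fits without 1 library, 15 of the 24 and 10 of the 26 remained called.

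Stretches upstream of the start site are shown for some genes of both lists. These were picked among genes whose call remained in each of those fits and that hold CHR or E2F letters upstream. The letters are in capitals, and whether they act in repression was not tested. The stretches come from the RefSeq promoter table (GRCh38.p14) and are printed 5′ to 3′ on the strand of the gene. For the mitotic genes CDK1 (chr10:60778130-60778215, plus strand), TOP2A (chr17:40418002-40418130, minus strand) and KIF11 (chr10:92593062-92593129, plus strand), the capitals mark the CHR letters TTTGAA or their reverse complement. For the G1/S genes E2F1 (chr20:33686386-33686458, minus strand) and CDC25A (chr3:48188418-48188501, minus strand), they mark E2F letters. The printed stretches begin or end at most 40 bases from the capitals.
CDK1: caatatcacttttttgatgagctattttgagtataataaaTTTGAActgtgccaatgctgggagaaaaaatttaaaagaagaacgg
TOP2A: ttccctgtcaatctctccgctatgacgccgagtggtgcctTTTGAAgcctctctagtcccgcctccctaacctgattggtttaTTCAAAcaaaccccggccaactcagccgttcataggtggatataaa
KIF11: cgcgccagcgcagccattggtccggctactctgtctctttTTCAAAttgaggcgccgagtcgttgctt
E2F1: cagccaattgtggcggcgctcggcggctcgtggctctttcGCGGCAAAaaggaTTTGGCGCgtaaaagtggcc
CDC25A: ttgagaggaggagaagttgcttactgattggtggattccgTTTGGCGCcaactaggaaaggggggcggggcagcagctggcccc

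The search covered both strands of 250 bases before to 50 bases after the start site, for the 12571 of 20027 genes tested that the table holds. CHR letters were TTTGAA or TTCGAA, and they stood in 11.4% of all these promoters, in 22.8% of those with a lower effect at 24 h and in 24.6% of the late falls (15 of 61). They stood in 7.76% of the late rises, 10.8% of the growing rises and 70.3% of the G2/M list (26 of 37). E2F letters were TTTGGCGC, TTTCCCGC, TTTGCCGC or TTTCGCGC, and they stood in 5.13% of all promoters, 11.1% of those with a lower effect and 59.5% of the G1/S list (22 of 37).  These shares are a description of letters with no test.

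CDK1, the kinase that drives entry into mitosis, was at 204, 161 and 186 CPM in pGFP and 213, 157 and 150 CPM in WT p53 at 6 h. After 24 h it was at 140, 138 and 115 CPM in pGFP and 43.8, 62.4 and 51.2 CPM in WT p53. The vectors overlapped at 6 h and were apart at 24 h, where both had fallen. The effect went from -0.08 ± 0.15 to -1.32 ± 0.15, a change of -1.24 ± 0.21 (edgeR, adjusted p = 0.0035).

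TOP2A, the topoisomerase that untangles chromosomes at mitosis, was at 365 to 448 CPM in pGFP and 405 to 515 CPM in WT p53 at 6 h. At 24 h pGFP was at 383, 417 and 378 CPM and WT p53 at 192, 257 and 244 CPM, so that the level fell in WT p53, and the change with time in pGFP did not pass. The change of the effect was -0.89 ± 0.16 (edgeR, adjusted p = 0.0035). KIF11, the kinesin that parts the spindle poles, and NDC80, a kinetochore protein, changed by -0.71 ± 0.15 and -0.93 ± 0.12 (adjusted p = 0.0078 and 0.00083). PLK1, CCNB1 and CDC20, which control mitosis as well, had changes of -0.33 ± 0.15, -0.29 ± 0.15 and 0.04 ± 0.16 that did not pass (adjusted p = 0.20, 0.30 and 0.94).

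E2F1, which drives S phase genes, was at 122, 112 and 102 CPM in pGFP and 110, 107 and 99.1 CPM in WT p53 at 6 h. After 24 h its levels were 75.6, 78.1 and 73.7 CPM in pGFP and 36.8, 46.0 and 47.9 CPM in WT p53. The level thus fell in both arms, more so with p53, and the effect changed by -0.71 ± 0.13 (edgeR, adjusted p = 0.0038). CDC6, a licensing factor of replication origins, fell from 139 to 150 CPM to 65.3 to 72.6 CPM in pGFP and from 120 to 136 CPM to 31.1 to 40.3 CPM in WT p53, a change of -0.72 ± 0.12 (adjusted p = 0.0029). CDC25A, a phosphatase that activates CDKs, changed by -0.50 ± 0.11 (adjusted p = 0.014) and BRCA2, of homologous recombination, by -0.84 ± 0.12 (adjusted p = 0.0010). CCNE2, cyclin E2, was already lower at 6 h, with an effect of -0.44 ± 0.08, and its effect changed by -1.10 ± 0.12 (adjusted p = 0.00073), though exons on the opposite strand cover 37.1% of its exon bases. GFI1, a transcriptional repressor outside these lists, had a growing fall too, with 1.60 to 2.15 and 1.19 to 1.35 CPM at 6 h and 6.62 to 7.57 and 1.77 to 2.27 CPM at 24 h in pGFP and WT p53, a change of -1.24 ± 0.22 (adjusted p = 0.0034).

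The direct targets of p53 did not move as one. Over all genes tested, 4.66% had a higher effect at 24 h and 3.26% a lower one. Of the 1863 genes raised at 24 h, 514 had a higher one. Of 17 tested genes of cell cycle arrest, 5 had a higher effect at 24 h and 1 a lower one, with a median change of 0.12. Besides CDKN1A, ZMAT3, a zinc finger protein that binds RNA, was at 37.1 to 43.3 CPM in pGFP and 81.2 to 84.0 CPM in WT p53 at 6 h and at 27.2 to 32.4 and 89.9 to 122 CPM at 24 h, a change of 0.86 ± 0.14 (edgeR, adjusted p = 0.0026). GAS6, a ligand of TAM receptors, changed by 1.17 ± 0.17 (adjusted p = 0.0012). RPRM, which arrests cells in G2, changed by 1.15 ± 0.23 (adjusted p = 0.0066). PLK2, a polo-like kinase, changed by 0.61 ± 0.15 (adjusted p = 0.025), and its call was lost without replicates 1 or 2 of pGFP at 24 h, 1 or 3 of pGFP at 6 h, or 1 or 2 of WT p53 at 6 h (0.56 to 0.61, adjusted p = 0.060 to 0.069). BTG2, an antiproliferative gene, was at 2.17 to 2.78 CPM in pGFP and 74.8 to 102 CPM in WT p53 over both times, an effect of 5.42 ± 0.10 at 6 h and 5.05 ± 0.10 at 24 h whose change did not pass (-0.36 ± 0.14, adjusted p = 0.15).

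Of 25 tested apoptosis genes, 9 had a higher effect at 24 h and 0 a lower one, with a median change of 0.38. The shares over all genes tested were 4.66% higher and 3.26% lower. PIDD1, a scaffold that activates caspase-2, was at 16.8, 18.0 and 17.1 CPM in pGFP and 79.7, 82.0 and 87.9 CPM in WT p53 at 6 h, and at 13.1, 14.8 and 13.8 CPM and 164, 149 and 115 CPM at 24 h. Its 4 groups did not overlap, and the effect changed by 1.09 ± 0.15 (edgeR, adjusted p = 0.00094). BAX, which permeabilises mitochondria, was at 27.7 to 28.2 and 55.9 to 61.3 CPM at 6 h and 25.8 to 28.9 and 72.5 to 88.0 CPM at 24 h, a change of 0.51 ± 0.11 (adjusted p = 0.010). BID, PERP, AEN, CASP6 and TNFRSF10A changed by 0.84, 0.80, 0.67, 0.84 and 0.92, and exons on the opposite strand cover 16.7% of the exon bases of TNFRSF10A. FAS, a death receptor, and BBC3, which encodes PUMA, had effects of 2.31 and 3.63 at 6 h and 2.44 and 3.11 at 24 h, and their changes of 0.13 ± 0.17 and -0.52 ± 0.24 did not pass (adjusted p = 0.75 and 0.23). The call of TP53I3 was lost in 11 of the 12 fits without 1 library (adjusted p = 0.051 to 0.12) and that of CASP1 in 6, without replicate 1 of pGFP at 24 h, any pGFP replicate at 6 h, or replicate 1 or 2 of WT p53 at 6 h (adjusted p = 0.051 to 0.061), and 7 of the 9 remained called in all 12 of those fits.

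Of 29 tested secreted and surface targets, 11 had a higher effect at 24 h and 0 a lower one, with a median change of 0.69, the highest of the lists. The shares over all genes tested were 4.66% higher and 3.26% lower. EFNB1, the ligand ephrin-B1, was at 16.3 to 18.5 and 44.8 to 46.5 CPM at 6 h and at 13.6 to 14.7 and 64.8 to 87.4 CPM at 24 h in pGFP and WT p53, a change of 1.11 ± 0.14 (edgeR, adjusted p = 0.00073). VDR, the vitamin D receptor, is a nuclear receptor, so that the name of the list does not cover it. It was at 36.4 to 39.0 and 45.0 to 47.1 CPM at 6 h and at 22.5 to 25.9 and 40.5 to 60.7 CPM at 24 h. Its effect changed by 0.80 ± 0.15 (edgeR, adjusted p = 0.0052) with the fall in pGFP. CAV1, caveolin-1, changed by 0.98 ± 0.22 (adjusted p = 0.017), lost without replicate 1 of WT p53 at 24 h (0.94, adjusted p = 0.061). BMP7, a bone morphogenetic protein, reached 2.84, 2.90 and 1.58 CPM in WT p53 at 24 h against 0.0684 to 0.366 CPM elsewhere, a change of 2.89 ± 0.69 (adjusted p = 0.018), lost without replicates 1 or 3 of pGFP at 6 h (2.72, adjusted p = 0.072, and 2.83, adjusted p = 0.062). GDF15, a stress cytokine, had effects of 6.15 ± 0.21 and 5.62 ± 0.18 and a change that did not pass (-0.52 ± 0.32, adjusted p = 0.40). The list's count was 6, 6 and 7 without replicates 1 and 3 of pGFP at 6 h and replicate 1 of WT p53 at 6 h, and 4 of the 11 remained called in all 12 fits.

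Among 10 genes of p53 feedback, 2 had a higher effect and 1, TP53INP1, a lower one (median 0.12). Beside this and the next lists stand 4.66% higher and 3.26% lower over all genes tested. MDM2 was at 183 to 209 CPM in pGFP and 1240 to 1370 CPM in WT p53 at 6 h and at 172 to 187 and 1250 to 1860 CPM at 24 h. Its effect of 2.75 ± 0.12 and then 3.16 ± 0.12 differed by 0.41 ± 0.15, which did not pass (edgeR, adjusted p = 0.12). PPM1D, the phosphatase WIP1, had a change of -0.29 ± 0.13 (adjusted p = 0.23). The 15 DNA repair genes had 2 higher and 1 lower (median -0.11), of which 1 remained called in all 12 fits without 1 library, with XPC, a sensor of DNA damage whose exon bases are covered to 24.6% by the opposite strand, at -0.13 ± 0.12 (adjusted p = 0.61). The 23 metabolism and autophagy genes had 3 higher and 2 lower (median 0.04). SESN1, a stress protein among them, had a change of -0.50 ± 0.13 (adjusted p = 0.031) that was lost without replicate 1 of pGFP at 24 h, any pGFP replicate at 6 h, or replicate 1 or 2 of WT p53 at 6 h (adjusted p = 0.052 to 0.084). Of 10 p53-linked lncRNAs, 2 were higher (PVT1 by 1.23 and GAS5 by 0.51, median 0.23). MIR34AHG, the host of miR-34a, had an effect of 8.42 ± 0.31 at 6 h and 6.34 ± 0.28 at 24 h and a change of -2.08 ± 0.63 that did not pass (adjusted p = 0.059).

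For the lists outside the p53 pathway, the shares over all genes tested were again 4.66% higher and 3.26% lower. The AP-1 and immediate early list had 2 higher of 24 (median 0.27). One of these was NR4A1, an orphan nuclear receptor at 11.2 to 17.1 CPM at 6 h, 19.3 to 22.9 CPM in pGFP and 68.2, 75.7 and 51.5 CPM in WT p53 at 24 h, with a change of 1.30 ± 0.18 (edgeR, adjusted p = 0.00098), and exons on the opposite strand cover 10.3% of its exon bases. The ATF4 response had 2 higher of 18 (median 0.25), the interferon response 1 of 26 (median 0.10), the heat shock list 3 of 14 (median 0.02), and cholesterol synthesis 1 lower of 21 (median 0.03). For the heat shock and interferon lists, 0 of those calls remained in all 12 fits without 1 library. None of 49 ribosomal protein genes (median 0.10) and none of 13 mitochondrial transcripts (median 0.02) passed. Of the 49 ribosomal protein changes, 48 were above 0. The effect on those genes passed as positive, at any size, for 0 at 6 h and for 23 at 24 h. Over all 20027 genes tested, 4485 passed as positive at 24 h. Among cell type markers, EGFR was higher by 0.63 ± 0.12, COL1A1 was lower by the edgeR test with a change of -1.36 ± 0.33, and the 2 lung epithelial markers tested did not pass. The COL1A1 call was lost without replicate 1 of pGFP at 6 h (-1.29, adjusted p = 0.054) and without replicates 2 or 3 of WT p53 at 6 h (-1.27 each, adjusted p = 0.061 and 0.057). The 18 genes that the study uses as examples, which it chose on these samples, had 6 higher and 5 lower, so that their count is no independent evidence.

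The p53 response element itself was rare in these promoter windows. Its 2 sites of 10 bases, with at most 1 mismatch and a spacer of at most 13 bases, stood in 0.461% of all promoters, in 1.46% of the genes raised at 6 h (8 of 549), in 0.803% of the growing rises (2 of 249), in 7.14% of the fading rises (1 of 14) and in 0 of 116 late rises. Only 58 of the 12571 promoters held the element, so classes of this size cannot show a lack or an excess of it. Elements outside the windows were not searched. One growing rise with an element of 0 mismatches is shown to give its form, with both sites in capitals. It is that of MCC (chr5:113488455-113488561, minus strand), a gene of colorectal cancer chosen after its values were seen, whose spacer has 7 bases.
MCC: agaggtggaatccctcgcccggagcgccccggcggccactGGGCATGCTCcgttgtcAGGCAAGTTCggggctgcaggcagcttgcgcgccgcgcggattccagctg
MCC was at 31.5 to 33.8 CPM in pGFP and 47.1 to 53.2 CPM in WT p53 at 6 h, and at 33.0 to 40.3 and 74.2 to 114 CPM at 24 h. Its effect grew by 0.80 ± 0.17 (edgeR, adjusted p = 0.011), and the groups did not overlap at either time.

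The change of an effect is the difference between the time courses of WT p53 and of pGFP, so each arm was tested for 24 h against 6 h in the same fit. With at least 2-fold, 2100 genes rose and 416 fell in WT p53, and 1674 rose and 350 fell in pGFP. At an adjusted p under 0.05 and any size, 4986 of the 20027 genes tested rose and 5054 fell in WT p53. In pGFP, 4245 rose and 4852 fell by that limit. The classes were defined by the difference of these 2 arms, so their counts by arm are a description. By the same limit, 140 of the 167 late rises rose in WT p53. Of those, pGFP did not pass for 88, fell for 21 and rose for 31. In another 25 the pGFP level fell and WT p53 did not pass. Of the 347 growing rises, 300 rose in WT p53, and in 42 pGFP fell and WT p53 did not pass.

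Among the 19 fading rises, pGFP rose in 16, and WT p53 rose as well in 11 of these. WT p53 fell in 3. Of the 91 late falls, 34 fell in WT p53 with no call in pGFP, 31 rose in pGFP with no call in WT p53, and 9 did both. Another 13 rose in both arms and 4 fell in both. The median change with time of the late falls was -0.51 in WT p53 and 0.65 in pGFP, and that of the late rises 1.24 and -0.16.

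**Figure D3:**
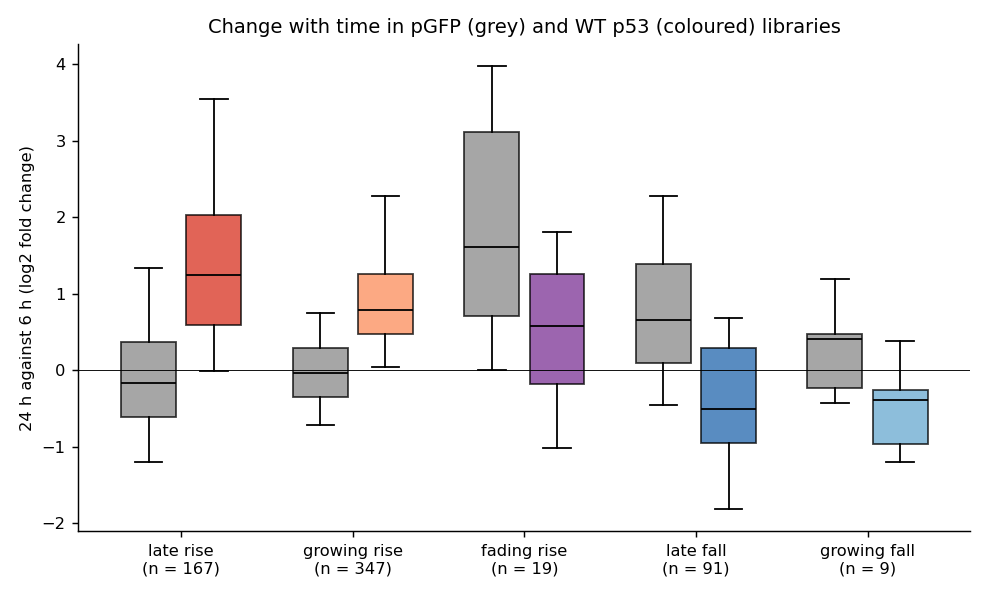
Log2 fold change of 24 h against 6 h in pGFP (grey) and WT p53 (coloured) libraries for the genes of each class. Boxes give the quartiles with the median as a line and whiskers the 5th and 95th percentiles over genes. The median of the fading rises was 1.60 in pGFP and 0.58 in WT p53, and that of the growing rises -0.04 and 0.78.

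The same difference of effects was computed in 11 other libraries of the series, of which none entered the comparison above. There the p53 side was the O6-meG vector, which carries the wild type sequence with an alkylated guanine in it, and the control was the mutant p53 labelled RW, with 3 libraries per group except 2 for O6-meG at 6 h. Of 20078 genes tested, 537 (2.67%) had a higher and 226 (1.13%) a lower effect at 24 h. Of the late rises tested there, 163 of 163 had the same sign and 80 were called in it. For the growing rises, 347 of 347 and 243 did so. For the late falls it was 90 of 91 and 35, for the growing falls 9 of 9 and 7, and for the fading rises 18 of 19 and 2. Over all genes tested in both sets, 70.4% had the same sign and 3.87% were called in it. None of the 1585 genes was called there in the opposite direction.

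LINC00324 changed by 3.37 ± 0.43 there, PTPRO by 2.89 ± 0.33, VCAN by 3.39 ± 0.24 and CDKN1A by 1.02 (edgeR, adjusted p = 0.0013, 0.00082, 2e-05 and 0.013). CDK1 changed by -1.34 (adjusted p = 0.0015) and E2F1 by -0.89 (adjusted p = 0.0025). TMEM151A and PDZD4 were the fading rises that passed, at -1.74 ± 0.37 and -1.79 ± 0.41 (adjusted p = 0.019 and 0.024), while IL11, at -1.13 ± 0.46, did not (adjusted p = 0.22). MDM2, not called in the 12 libraries, changed by 0.81 there (adjusted p = 0.019). Both the p53 vector and the control differ between the 2 sets, so their values are not measures of the same quantity.

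**Figure D4:**
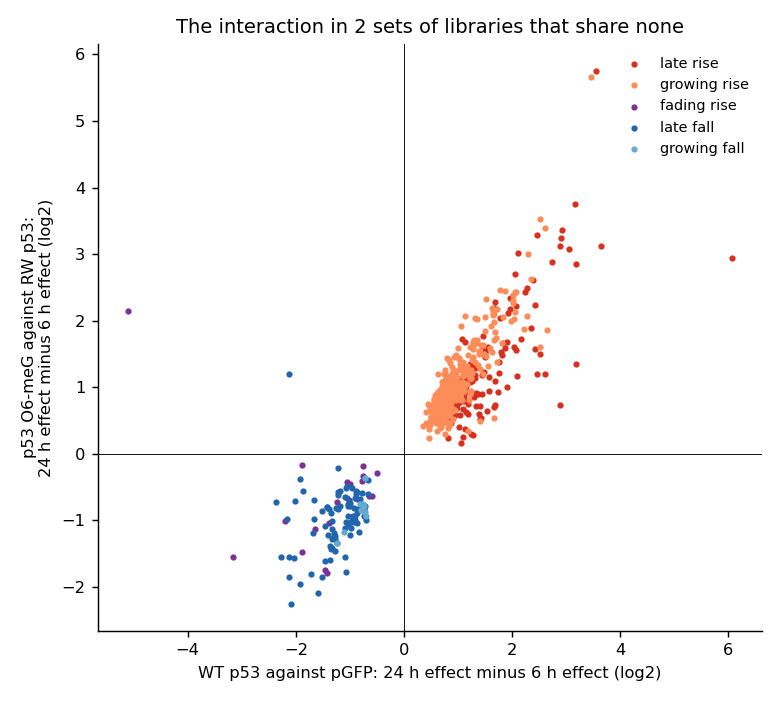
Each point is a gene of a class, with the change of the WT p53 effect (24 h minus 6 h, log2, 12 libraries) on the horizontal axis and the change of the O6-meG effect against RW (11 other libraries) on the vertical axis. Late and growing rises lie at the upper right, above 0 on both axes, and all but 1 of the 91 late falls at the lower left.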

How the data were processed

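The deposited values are raw counts of single reads from stranded, rRNA-depleted total RNA libraries. The authors aligned them to hg38 with STAR 2.5.3a and assigned them to GENCODE v27 genes with featureCounts of Subread 1.5.2, whose strand option is not given in the sources used here. The deposited table of normalized signal was not used here. Per the file header, 39359 genes have counts, of which 38904 were matched to GENCODE v44 for coordinates.

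The 12 libraries of 4 groups were fitted with edgeR 4.0.16 in R 4.3.3 after filterByExpr and TMM scaling. The contrast was WT p53 against pGFP at 24 h minus the same at 6 h, by the quasi-likelihood test with Benjamini-Hochberg adjustment over all genes tested. Each SE is the size of the estimate over the square root of F. P-values measure the spread between biological triplicates. Named genes are the 5 with the largest change per class (at least 1 CPM on average, over 3 counts in each library, no overlap of the vectors at 6 h for fading rises and at 24 h for the others), late rises with at most 3 counts in every pGFP library, list members, and classes of 5 or fewer, and 1 further gene of this rule is not reported here. The members and gene lists were chosen with earlier results of these data known. Titles of 2 O6-meG and TM libraries at 6 h conflict, and none of the 12 is affected. Simulated counts with 100 genes changed by 2-fold gave 56 recovered (56 of the 65 with at least 100 counts), and 15 of 100 at 1.4-fold. Alternatives included DESeq2 1.42.0.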

Additional observations from a re-analysis of the deposited data

Results flagged for a closer look

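The p53 effect differed between the 2 times by the interaction test (edgeR, adjusted p under 0.05) for 933 genes with a higher effect at 24 h and 652 with a lower one. Among the genes named by level and size, the change of the effect on the log2 scale was 3.18 for TOX, 3.05 for NECAB1, 2.93 for LINC00324, 2.91 for KIF26B and 2.74 for PTPRO. It was 2.60 for VCAN, 2.52 for MAST4, 2.35 for NTN1, 2.29 for DCLK1 and 2.27 for KCNF1. It was -1.88 for PLIN4, -1.64 for IL11, -1.47 for TMEM151A, -1.42 for PDZD4 and -1.39 for ERFL. It was -1.71 for C2CD4C, -1.69 for COL11A1, -1.66 for TACR3, -1.47 for LEF1, -1.45 for TLX3 and -2.47 for CLPSL2. No group has more than 3 libraries, so single values far from their group were not looked for.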

How the results depend on the processing

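The scaling of DESeq2 and its Wald test left every count within 1.5 times except that of growing falls (17 and 25 in place of 9), and 1532 and 1548 of the 1585 genes were called again in the same direction. With every gene of at least 1 count, which shifted the median change to -0.062, 1033 genes were lower, 40 and 631 were lowered at 6 h and 24 h, and there were 38 fading rises, 178 late and 25 growing falls. With at least 10 counts in every library, 484 genes were raised and 6 lowered at 6 h, 1110 and 193 at 24 h, and 1285 and 1072 changed with time in WT p53 and pGFP. In a fit of all 30 libraries 531 were higher, with 105 growing and 4 fading rises, 5 growing falls, 2 apoptosis, 6 secreted and 14 G2/M genes. Without the 2 libraries of conflicting titles, the fit of 28 gave 10 fading rises and 16 G2/M genes. With RW mutant p53 as the control, 383 were lower, 5 were lowered at 6 h and 15 G2/M genes passed. In the 11 other libraries with pGFP as the control, 358 were lower. Leaving out 1 library gave 533 to 1342 higher, 301 to 858 lower, 186 to 449 of at least 2-fold, 745 to 964 raised and 5 to 26 lowered at 6 h, 1569 to 2126 and 278 to 544 at 24 h, 108 to 208 late, 210 to 570 growing and 11 to 31 fading rises, 54 to 116 late and 2 to 18 growing falls, 2246 to 2885 and 1733 to 2260 genes changed with time in WT p53 and pGFP, 7 to 13 apoptosis, 6 to 13 secreted, 15 to 30 G1/S and 10 to 35 G2/M genes.

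Replicate numbers paired libraries within 24 h (3 of 3 same-number correlations over 0.1), in 2 of 3 pairs at 6 h and in 0 of 12 pairs across times, so that not every pair passed and the block was kept as an alternative. At each time every library correlated best with its own number, a hint from the data and not from the labels. With the replicate number as a block within each time, 2177 were higher and 1776 lower, 506 by at least 2-fold, with 587 growing and 44 fading rises, 146 late and 23 growing falls, 43 genes lowered at 6 h, 14 apoptosis and 17 secreted genes. With a replicate block over both times, 935 and 612 were higher and lower. Over the named genes and called list members no change reversed its sign in any setting. The fit of all 30 libraries lost 54 of their calls, CDKN1A (edgeR, adjusted p = 0.50) and PIDD1 (0.41) among them. The fit of 28, without the 2 libraries of conflicting titles, lost 28, and CDKN1A and PIDD1 stayed called. On leaving out single libraries 1202 values kept their side of the threshold and 297 lost it. The depth limits calls of genes with few counts, and with 3 libraries a group most changes of 1.4-fold pass unseen.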

Other observations

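Families noticed after the values were seen are given as counts with no test, beside 4.66% higher and 3.26% lower over all genes tested. Of 48 clustered histone genes tested, 6 had a lower effect and 0 a higher one, with a median change of -0.80 on the log2 scale and 46 below 0. H4C4, a histone H4 gene, was at 64.4 to 83.9 CPM in WT p53 at 6 h, 44.8, 48.0 and 51.1 CPM in pGFP at 24 h and 12.8, 23.4 and 21.2 CPM in WT p53 at 24 h, a change of -1.34 ± 0.26 (edgeR, adjusted p = 0.0088). H2BC3, a histone H2B gene, changed by -1.52 ± 0.33 (adjusted p = 0.011). The calls of H3C1, H4C1, H2BC14 and H2BC8 were each lost without most single libraries. The libraries were made from total RNA after rRNA depletion, so transcripts without a poly(A) tail were counted.

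Of 10 tested genes grouped as SMC, 5 had a lower effect and 0 a higher one (median -0.33). The 5 were SMC2, SMC3, SMC4, SMC1A and SMC1B, which build condensin or cohesin. Of 41 CEP genes of the centrosome 12 were lower and 1 higher (median -0.19). One of the 5 SMC calls, SMC1B, and 10 of the 12 lower CEP calls were lost on leaving out single libraries, and those of CEP295 and CEP152 (-0.65 and -0.47) were not. In the other direction, 5 of 35 genes of RNA polymerases I to III (median 0.07) and 4 of 26 SNHG genes, hosts of snoRNAs (median 0.25), had a higher effect and 0 a lower one. The effect on SNHG3 was -0.39 ± 0.08 at 6 h and 0.10 ± 0.09 at 24 h (edgeR, adjusted p = 0.0054 and 0.41). That on SNHG12 went from -0.31 to 0.51, on SNHG7 from -0.31 to 0.29 and on SNHG16 from 0.07 to 0.41. In all 4 the pGFP level fell with time. The calls of POLR1G, SNHG7, SNHG3 and SNHG16 were lost on leaving out single libraries, SNHG16 in 10 of 12 such fits.

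NLRP3, an inflammasome sensor also chosen after its values were seen, was a late rise with 4.76 to 6.31 and 6.83 to 7.90 CPM at 6 h in pGFP and WT p53, and 2.05 to 2.90 and 14.3, 15.9 and 8.97 CPM at 24 h. The pGFP level fell and the WT p53 level rose, with a change of the effect of 2.07 ± 0.27 (edgeR, adjusted p = 0.00083).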
